A study of Caenorhabditis elegans with 12 samples.

Results

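The genes described here encode giant sarcomere proteins, M-line proteins and regulators of muscle actin in Caenorhabditis elegans. They are unc-22, ttn-1, unc-89, unc-96, unc-98, unc-87, dim-1, unc-60 and unc-78, a list of 9 genes chosen by gene symbol from the platform annotation, out of 17138 genes in the series by that annotation. Whole-worm RNA was hybridised to Affymetrix C. elegans arrays, 1 array per sample. The groups were wild type strain N2, strain BA1 with the temperature-sensitive allele fer-1(hc1) and strain BA24 with the temperature-sensitive allele fer-1(hc24), with 4 arrays in each. Animals of all 3 groups were synchronised as L1 larvae and raised at 25 °C to young adults, and a particle sorter then collected 1000 adults per sample. Of 6 preparations per genotype the submitters kept the 4 that correlated best, so the spread between arrays given below is narrower than that between preparations. Each allele was carried by 1 strain, so allele and strain background cannot be told apart.

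fer-1 encodes a ferlin, a relative of human dysferlin, which is known for membrane repair in muscle. The comparisons bear on whether transcripts of muscle genes differ in worms with a mutated ferlin gene. In the obliquely striated body wall muscle of the worm, thick filaments of myosin are held in register at M-lines and thin filaments of actin are anchored at dense bodies. Very long proteins built from immunoglobulin and fibronectin repeats run along the filaments and carry kinase domains, and a separate group of proteins stabilises, bundles or takes apart actin filaments. Loss of many of these genes in C. elegans gives slow, twitching or uncoordinated worms with disordered sarcomeres, which is the origin of most of the unc names.

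In hc1, 5 genes of this set were lower than in wild type (unc-89, ttn-1, unc-96, unc-87 and dim-1), by 1.61-fold to 2.43-fold at their brightest probe set, and none was higher. In hc24, ttn-1 and unc-96 were lower, by 2.11-fold and 1.35-fold, beside 21.7% of all tested probe sets called lower. The unc-96 call was lost in 10 of 22 alternative analyses, and the number of genes called in hc24 ran from 1 to 6 over them. unc-89, unc-87 and dim-1 were lower in hc1 than in hc24, by 1.71-fold to 2.24-fold at their brightest probe set. For unc-89 this rests on 1 of its 4 tested probe sets, whereas every probe set of unc-87 and dim-1 was called. The cofilin gene unc-60 and its partner unc-78 passed in no comparison at their brightest probe set, but 1 other unc-60 probe set fell 2.62-fold in hc1 and 1.75-fold in hc24. The twitchin gene unc-22 and the M-line gene unc-98 gave no usable signal.

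The 9 genes were read by 27 probe sets, each paired with that gene alone, and 18 of these were tested. Testing required a log2 value of 4 or more in 4 or more of the 12 arrays, and 11833 probe sets met this. For 7 of the 9 genes at least 1 probe set was tested, and the brightest one of each lay above 4 in all 12 arrays. All adjusted p-values come from 1 limma fit over the 11833 tested probe sets and the 12 arrays, are two-sided, and are Benjamini-Hochberg adjusted over those probe sets. A probe set is called when the adjusted p is under 0.05. Values are log2 expression values, and a level of one probe set cannot be set against that of another.

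Calls were common in these arrays, and the counts above have to be read against that background. In hc1 against wild type 69.2% of the tested probe sets were called, 25.9% lower and 43.3% higher. The 5 of 7 tested genes called lower stand beside that 25.9%. In hc24 against wild type 59.4% were called, 21.7% lower and 37.7% higher, beside 2 of 7 genes here. Between hc1 and hc24 30.7% were called, 12.2% lower in hc1 and 18.6% higher, beside 3 of 7 genes here. The arrays of the compared groups did not overlap, the first-named group being lower, for 23.2% of tested probe sets in hc1 against wild type and 12.9% in hc1 against hc24, beside 5 and 3 of the 7 genes, and for 19.5% in hc24 against wild type, beside 0. Without overlap and higher were 41.7%, 35.7% and 21.7% of tested probe sets in hc1 against wild type, hc24 against wild type and hc1 against hc24, and 0 of the genes. The median log2 difference over all tested probe sets was 0.14 in hc1 and 0.12 in hc24, whereas the median over the 7 tested genes was -0.95 in hc1 and -0.17 in hc24. Scaling moved this centre, to -0.03 in hc1 after cyclic loess and 0.40 after median centring of the arrays, and in hc24 to -0.00 and 0.38. Rises made up 62.5% of the calls in hc1 and 63.5% in hc24, against 44.0% and 45.5% after cyclic loess and 76.5% and 80.4% after median centring. The count for hc1 was 5 of 7 with median centring and 7 of 7 with cyclic loess, whereas that for hc24 was 1 of 7 and 6 of 7. In hc1 the share of all tested probe sets called lower was above 25.9% after cyclic loess and below it after median centring. In hc24 this share was likewise above 21.7% after cyclic loess and below it after median centring. The gene counts thus moved together with the share of all probe sets, except that the hc1 count stayed at 5 with median centring. The 25.9% and 21.7% belong to the values as deposited, so counts under other scalings, here and below, cannot be set against them. In RNA of whole worms, less muscle tissue per worm and less RNA of a gene per muscle cell cannot be told apart.

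fer-1 itself was read near the floor of the scale by its single probe set. Wild type averaged 1.46 ± 0.00, hc1 averaged 1.48 ± 0.01 and hc24 averaged 1.47 ± 0.00 (SD, 4 arrays per group), so the arrays do not check the genotype labels. Body wall muscle was well represented: 11 of 12 marker genes were tested, and the transcription factor gene hlh-1 was under the minimum. The log2 of the summed level of these markers was 16.64 to 16.87 in wild type, 15.98 to 16.21 in hc1 and 16.57 to 16.71 in hc24, so that hc1 lay apart and the other groups overlapped. Markers of other tissues moved as well. Counts of called markers below stand beside 25.9% lower and 43.3% higher over all tested probe sets in hc1. In hc24 these shares were 21.7% and 37.7%. The summed level of 9 early embryo markers, 4 of which were under the minimum (end-3, med-1, sdz-19 and sdz-23), was 7.61 to 8.23 in wild type, from 11.80 upward (median 11.95) in hc1 and 11.16 to 11.30 in hc24. That of 10 germ line and oocyte markers was 16.54 to 16.77, 16.94 to 17.01 and 16.76 to 16.89. Of the 5 early embryo markers tested, 4 were higher and 1 lower (end-1) in each mutant. Of the 10 germ line and oocyte markers, 7 were higher and 1 lower (glh-1) in hc1, and 4 higher and 0 lower in hc24. A sum follows its brightest member. Some members also moved differently from the sum in the hypodermis, pharyngeal muscle and neuron lists, as was seen after their values were known. The hypodermis markers summed to 14.90 to 15.07, 14.25 to 14.59 and 15.02 to 15.34, but that sum is mostly dpy-13, which rose in hc24 (log2 difference 0.35). Of the 6 tested, 5 were lower in hc1 (median -2.42), and 4 were lower and 1 higher in hc24 (median -2.19), with bli-1 and bli-2 under the minimum. The pharyngeal muscle markers summed to 9.61 to 10.17, 8.48 to 8.61 and 8.58 to 8.86. In wild type that sum is mostly pha-4 (mean 9.23), which fell in both mutants (-2.69 in hc1 and -2.81 in hc24). In the mutants tni-4 was the brightest tested member, at 7.55 in hc1 and 7.76 in hc24, above pha-4 at 6.53 and 6.42. Of the 4 tested, 2 were lower in hc1 (median -0.47), and 1 was lower and 1 higher in hc24 (median -0.07), with myo-2, myo-5 and ceh-22 under the minimum. The neuron markers summed to 13.11 to 13.33, 12.96 to 13.12 and 12.79 to 12.95, which is mostly snb-1. Of the 6 tested, 5 were lower in hc1 (median -0.92) and 5 in hc24 (median -0.29), with unc-13 and unc-31 under the minimum. The intestine markers summed to 18.36 to 18.46, 18.29 to 18.40 and 18.05 to 18.26, and of 8 tested 3 were lower in hc1 and 6 in hc24. That of 20 sperm genes, 4 of which were under the minimum (ssp-16, gsp-3, gsp-4 and spe-11), ran from 10.04 to 11.41 among wild type arrays and from 14.03 to 14.30 among hc24 arrays. In hc1 it was 9.60 to 13.78, and hc1 replicate 2 was the high array. The brightest major sperm protein gene, msp-78, read 11.28 in that array and 6.42 to 7.73 in the other hc1 arrays. The part of these tissues in the results on the muscle genes was not tested, and without hc1 replicate 2 the count for the genes described here was again 5 lower in hc1.

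**Figure D1:**
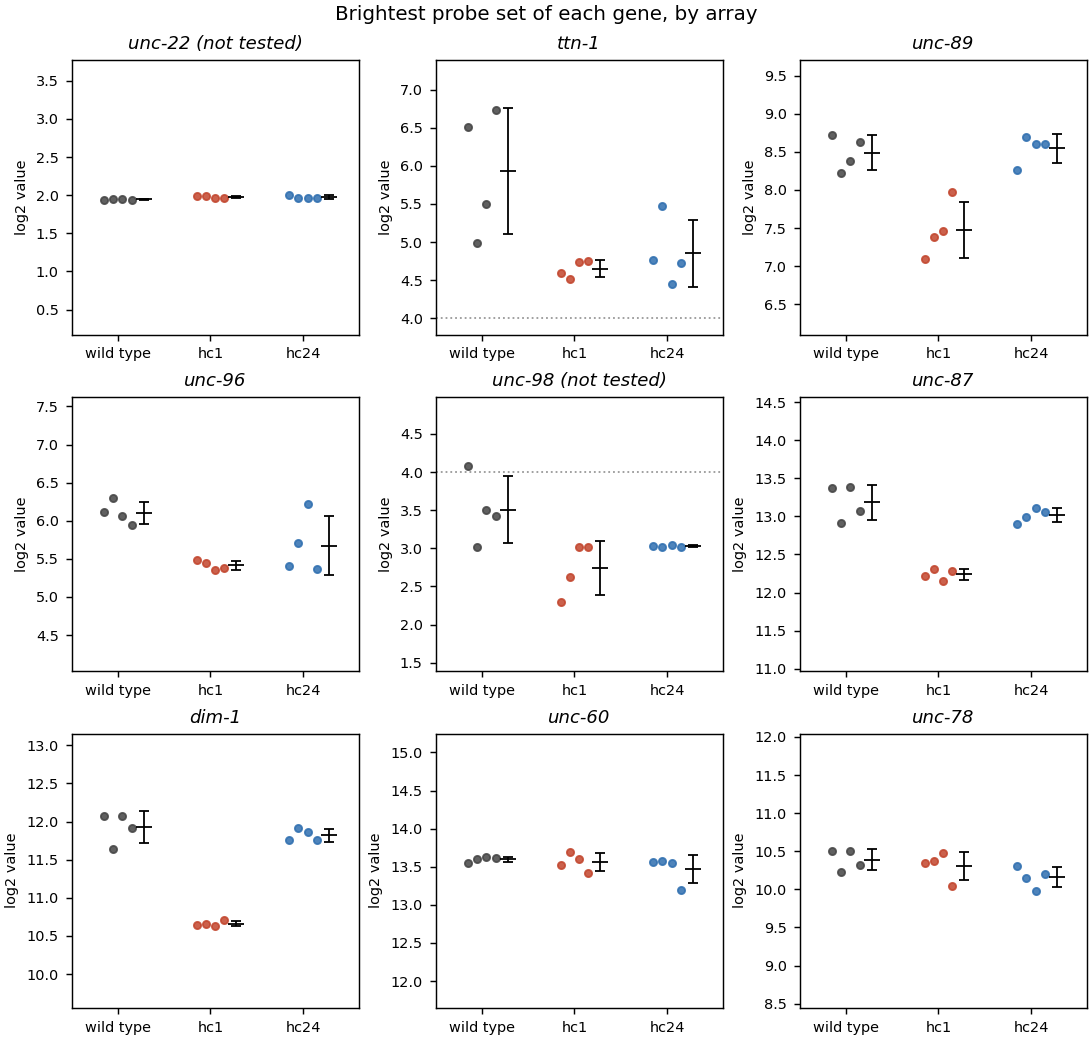
Log2 value of the brightest probe set of each of the 9 genes in the 12 arrays (points, one per array; horizontal axis: group; black marks: mean ± SD, n = 4). Each panel spans the same number of log2 units, and the dotted line marks the minimum of 4. hc1 lies below wild type for ttn-1, unc-89, unc-96, unc-87 and dim-1, and unc-22 sits near 2 in every group.

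Among the giant proteins, ttn-1 had the largest difference. It encodes a titin-like protein of body wall muscle with kinase, immunoglobulin and fibronectin domains. It lies on chromosome V of the RefSeq assembly WBcel235, and 1 of its 6 probe sets was tested (174345_at). Wild type arrays read 6.51, 4.99, 5.50 and 6.73 (replicates 3, 4, 5 and 6). The hc1 arrays read 4.60, 4.52, 4.74 and 4.75 (replicates 1, 2, 5 and 6), all below every wild type array. The hc24 arrays read 4.76, 5.47, 4.44 and 4.73 (replicates 1, 2, 3 and 5), and replicate 2 reached into the wild type range. ttn-1 fell 2.43-fold in hc1 (log2 difference -1.28, 95% confidence interval -2.01 to -0.55, adjusted p = 0.00456) and 2.11-fold in hc24 (-1.08, interval -1.81 to -0.35, adjusted p = 0.0145). Both calls held in each of the 21 alternatives that tested the probe set. The alleles differed by -0.20 (interval -0.93 to 0.53, adjusted p = 0.691), an interval that spans both directions. The wild type arrays were the most variable of the set, with an SD of 0.83. The other 5 ttn-1 probe sets stayed under the filter, and 4.22 in wild type replicate 6 was their highest value.

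unc-89 encodes the worm relative of obscurin, a giant M-line protein with kinase domains. It lies on chromosome I and was read by 4 tested probe sets out of 5. At the brightest one (174492_at) wild type arrays read 8.72, 8.22, 8.38 and 8.63, hc1 arrays 7.09, 7.39, 7.46 and 7.97, and hc24 arrays 8.27, 8.70, 8.61 and 8.60. The hc1 arrays lay below all others and the hc24 arrays lay among the wild type arrays. unc-89 fell 2.01-fold in hc1 (log2 difference -1.01, interval -1.39 to -0.64, adjusted p = 0.000224). In hc24 the difference was 0.06 (interval -0.32 to 0.43, adjusted p = 0.796), and hc1 lay 2.09-fold below hc24 (adjusted p = 0.000525). Over the mean of the tested unc-89 probe sets the hc24 difference was -0.25 (adjusted p = 0.0464), opposite in sign to that of the brightest one.

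The other unc-89 probe sets gave the same direction in hc1 but a different picture of the alleles. All 3 were called lower in hc1, with log2 differences of -0.44 to -0.60. The call at 175353_s_at was lost in 9 of 20 alternatives. In hc24 these 3 probe sets differed from wild type by -0.31 to -0.39 (adjusted p = 0.069 to 0.0874). They passed there in 5 of 21 alternatives for 189196_at, 2 of 20 for 175353_s_at and 3 of 20 for 174686_at. These included the fits without hc1 replicate 6 or hc24 replicate 5 for 189196_at (adjusted p = 0.0269 and 0.0429), without wild type replicate 5 for 175353_s_at (adjusted p = 0.000675), and without wild type replicate 4 or hc24 replicate 2 for 174686_at (adjusted p = 0.0358 and 0.0481). Between the alleles they differed by -0.07 to -0.29 (adjusted p = 0.154 to 0.800), against -1.07 at the brightest. The change of each of these probe sets was compared with that of the brightest within each array, by exact two-sided permutation of the arrays. Between hc1 and hc24 it differed by 0.87 for 174686_at and 1.00 for 175353_s_at (each exact permutation p = 0.0286, the smallest that the design allows). For 189196_at the difference was 0.78 (exact permutation p = 0.114). After Benjamini-Hochberg adjustment over the 33 such comparisons within genes the values were 0.189, 0.189 and 0.290.

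unc-22 encodes twitchin, a giant kinase of the thick filament whose loss gives the twitching phenotype. It lies on chromosome IV and is represented by 2 probe sets, neither of which reached the minimum in any array. Values at 194136_s_at ran from 1.94 to 1.95 in wild type, from 1.96 to 1.99 in hc1 and from 1.96 to 2.01 in hc24. Each mutant lay 0.03 above wild type, with p = 0.0286 by exact permutation and 0.129 after adjustment over 9 such tests. These differences lie at the floor of the measurement, so the level of unc-22 has only an upper bound and no fold is given.

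The M-line genes unc-96 and unc-98 encode proteins that link thick filaments to the membrane attachments at the M-line, and both lie on chromosome X. unc-96 was measured by both of its probe sets. At the brighter one (187788_at) wild type arrays read 6.12, 6.30, 6.07 and 5.95, hc1 arrays 5.49, 5.44, 5.36 and 5.37, and hc24 arrays 5.40, 5.71, 6.22 and 5.37. All hc1 arrays lay below wild type, and hc24 replicate 3 lay among the wild type arrays. unc-96 fell 1.61-fold in hc1 (log2 difference -0.69, interval -1.03 to -0.35, adjusted p = 0.00177), and the other probe set fell by 0.58 on the log2 scale (adjusted p = 0.00124). In hc24 it was 1.35-fold lower (-0.43, interval -0.77 to -0.09, adjusted p = 0.0305), with the other probe set at -0.32 (adjusted p = 0.0449). The hc24 call of the other probe set was lost in 11 of 20 alternatives, with an adjusted p of up to 0.638, among them the fits without wild type replicate 3, 5 or 6, hc1 replicate 2 or hc24 replicate 1, 2 or 3. That of the brighter one was lost in 10 of 22, over which the adjusted p ranged from 0.000435 to 0.317. The alternatives that lost it included median centring (adjusted p = 0.317) and the removal of wild type replicate 3, 4 or 5 or of hc24 replicate 1, 2 or 5. The alleles differed by -0.26 (interval -0.60 to 0.08, adjusted p = 0.237).

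unc-98, a zinc finger protein that binds UNC-96, had 1 probe set, which reached 4 in 1 of 12 arrays and was not tested. Wild type arrays read 4.08, 3.01, 3.51 and 3.43, hc1 arrays 2.29, 2.62, 3.02 and 3.02, and hc24 arrays 3.03, 3.02, 3.04 and 3.02. The mean difference was -0.77 in hc1 (exact permutation p = 0.0857) and -0.48 in hc24 (exact permutation p = 0.143), and adjusted over the same 9 tests both p-values were 0.257. The mean of every group being under the minimum, no fold is given.

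For unc-87 and dim-1 the hc1 arrays lay apart from both other groups. UNC-87 is a protein of calponin-like repeats that binds and stabilises actin filaments against disassembly, and its gene lies on chromosome I. At the brightest of its 3 probe sets (188494_s_at) wild type arrays read 13.37, 12.92, 13.38 and 13.07, hc1 arrays 12.22, 12.31, 12.15 and 12.29, and hc24 arrays 12.90, 12.99, 13.12 and 13.06. No hc1 array came near the other groups, which overlapped each other. unc-87 fell 1.93-fold in hc1 (log2 difference -0.95, interval -1.17 to -0.72, adjusted p = 5.68e-06), and the other probe sets differed by -0.91 and -1.15. hc1 lay 1.71-fold below hc24 (-0.77, interval -0.998 to -0.552, adjusted p = 0.000116), with -0.77 and -0.81 at the other probe sets. In hc24 against wild type the difference was -0.17 (interval -0.39 to 0.05, adjusted p = 0.170). The dimmest unc-87 probe set passed there (-0.34, adjusted p = 0.0493), a call lost in 10 of 21 alternatives.

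dim-1, on chromosome X, encodes an immunoglobulin domain protein near the dense bodies, found through mutations that suppress the paralysis of unc-112 mutants. At its brighter probe set (188558_s_at) wild type arrays read 12.08, 11.64, 12.07 and 11.92, hc1 arrays 10.64, 10.66, 10.63 and 10.71, and hc24 arrays 11.75, 11.92, 11.86 and 11.75. The hc1 arrays lay close together and far below both other groups, and the hc24 arrays lay within the wild type range. dim-1 fell 2.41-fold in hc1 (log2 difference -1.27, interval -1.47 to -1.07, adjusted p = 1.44e-07) and 2.80-fold at its other probe set. hc1 lay 2.24-fold below hc24 (-1.16, interval -1.36 to -0.96, adjusted p = 2.0e-06). In hc24 the difference from wild type was -0.11 (interval -0.31 to 0.09, adjusted p = 0.318). The other dim-1 probe set passed there (-0.27, adjusted p = 0.0440), a call lost in 9 of 21 alternatives.

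**Figure D2:**
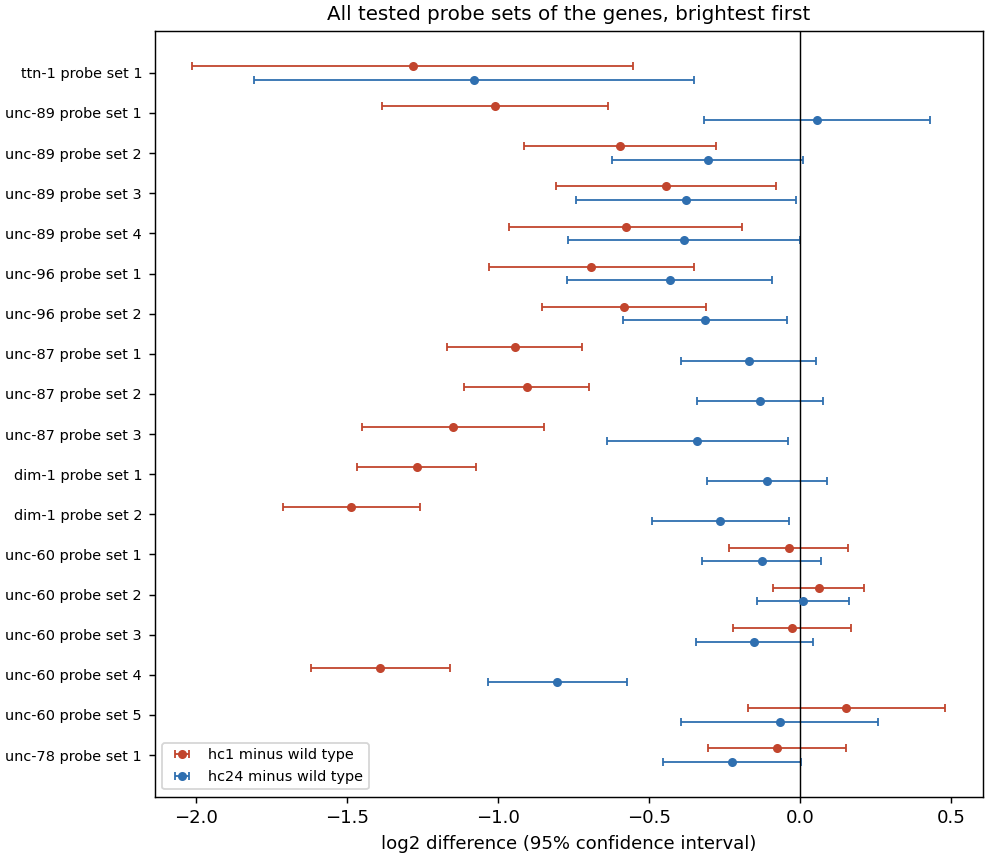
Log2 difference from wild type with its 95% confidence interval (horizontal axis) for each of the 18 tested probe sets (vertical axis, brightest first within a gene), in hc1 (red) and hc24 (blue). The hc1 and hc24 intervals do not overlap for any probe set of unc-87 and dim-1, for the brightest of unc-89 and for 193210_s_at of unc-60. This last is the 1 of the 5 unc-60 probe sets that lies apart from the other 4.

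The genes of actin turnover in the set were unc-60 and unc-78. unc-60, on chromosome V, encodes the worm cofilins, which sever and depolymerise actin filaments. Alternative splicing gives UNC-60A, found in many tissues, and UNC-60B, a form of body wall muscle. Its brightest probe set (171748_x_at) read 13.55, 13.60, 13.63 and 13.61 in wild type, 13.52, 13.70, 13.61 and 13.42 in hc1, and 13.56, 13.57, 13.55 and 13.20 in hc24. The groups overlapped. The difference was -0.04 in hc1 (interval -0.23 to 0.16, adjusted p = 0.722) and -0.13 in hc24 (interval -0.32 to 0.07, adjusted p = 0.239). Over the mean of its tested probe sets unc-60 was lower in hc1 (-0.25, adjusted p = 0.00176), and cyclic loess also called it there (-0.24, adjusted p = 0.0368). At 3 further probe sets (174141_at, 192015_s_at and 171826_x_at) the differences from wild type ran from -0.03 to 0.15 in hc1 and from -0.15 to 0.01 in hc24, and none was called.

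The remaining unc-60 probe set, 193210_s_at, separated all 3 groups. Wild type arrays read 11.84, 11.58, 11.86 and 11.66, hc1 arrays 10.35, 10.35, 10.35 and 10.34, and hc24 arrays 10.70, 10.89, 10.87 and 11.26. Every hc1 array was below every hc24 array, and every hc24 array below every wild type array. It fell 2.62-fold in hc1 (log2 difference -1.39, interval -1.62 to -1.16, adjusted p = 2.45e-07) and 1.75-fold in hc24 (-0.80, interval -1.03 to -0.57, adjusted p = 3.83e-05), and hc1 lay 1.50-fold below hc24 (adjusted p = 0.00116). All 3 calls held in each of 21 alternatives. Set against the brightest unc-60 probe set within each array, its change was lower by 1.35 in hc1 (exact permutation p = 0.0286) and by 0.68 in hc24 (exact permutation p = 0.0857). Adjusted over the 33 comparisons within genes these were 0.189 and 0.283. The annotation used here does not say which isoform each probe set reads.

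**Figure D3:**
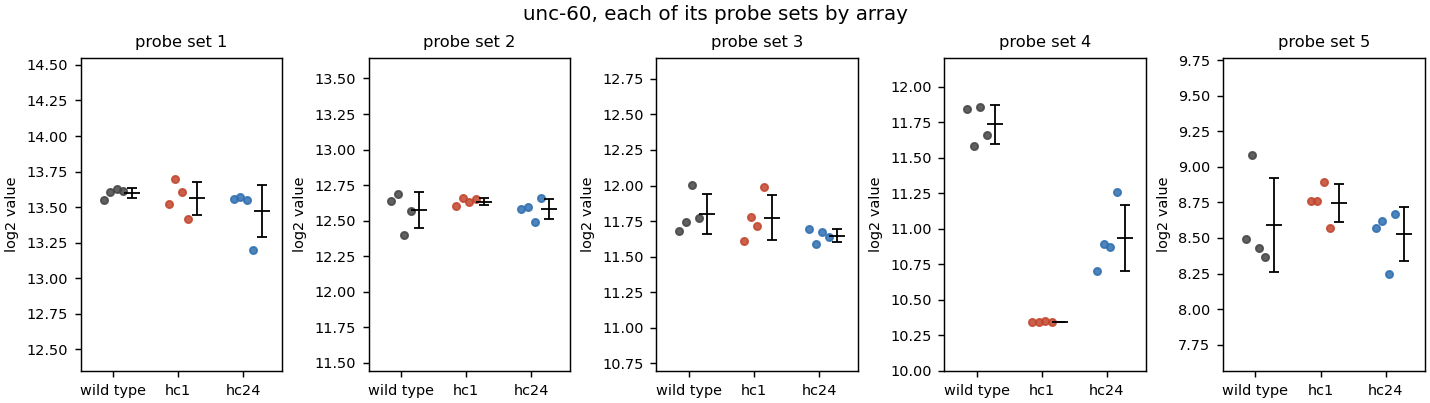
Log2 values of the 5 unc-60 probe sets, brightest first, in each array (points; horizontal axis: group; black marks: mean ± SD, n = 4). All panels span the same number of log2 units. Probe set 4 falls from 11.73 in wild type to 10.93 in hc24 and 10.35 in hc1, and the groups overlap in the other panels.

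unc-78, on chromosome X, encodes a WD repeat protein that acts with cofilin to take actin filaments apart and is known to be needed for ordered thin filaments. Its single probe set read 10.51, 10.23, 10.50 and 10.31 in wild type, 10.35, 10.37, 10.47 and 10.05 in hc1, and 10.30, 10.15, 9.98 and 10.20 in hc24. The groups overlapped. The difference was -0.08 in hc1 (interval -0.31 to 0.15, adjusted p = 0.528) and -0.23 in hc24 (interval -0.46 to 0.00, adjusted p = 0.0806). The hc24 value passed in 4 of 22 alternatives, among them cyclic loess (-0.38, adjusted p = 0.0121) and the fits without wild type replicate 4 or hc1 replicate 6 (adjusted p = 0.0455 and 0.0429). hc1 and hc24 differed by 0.15 (interval -0.08 to 0.38, adjusted p = 0.311). Its paralog aipl-1, a member of the list of actin regulators below, went the other way, from 11.48 in wild type. It rose 1.48-fold in hc1 (adjusted p = 1.63e-05) and 1.43-fold in hc24 (adjusted p = 4.77e-05).

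A list of 21 genes held partners of the M-line and of the giant proteins, together with genes of dense bodies and muscle attachment. Of these 16 were tested, 4 stayed under the filter and 1 matched no probe set. In hc1 14 of the 16 were lower and 1 higher (median log2 difference -0.98), beside 25.9% lower and 43.3% higher over all tested probe sets. The 2 largest falls were those of alp-1, a PDZ and LIM domain protein of dense bodies and M-lines, by 3.32-fold (adjusted p = 2.12e-07), and of sorb-1, a sorbin-type adhesion protein, by 3.30-fold (adjusted p = 4.05e-09). The gene that rose was mel-26, an adaptor of cullin ubiquitin ligases known to bind UNC-89, by 1.29-fold (adjusted p = 0.00255). With cyclic loess mel-26 did not pass (adjusted p = 0.133). In hc24 9 of the 16 were lower and 0 higher (median -0.35), beside 21.7% and 37.7% over all. The falls were led by sorb-1 (3.62-fold, adjusted p = 1.80e-09) and unc-23, a chaperone regulator of muscle attachment (2.16-fold, adjusted p = 8.95e-06). With cyclic loess the split in hc24 was 0 higher and 13 lower, and with median centring 2 higher and 5 lower.

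Between hc1 and hc24 the same list had calls mostly in the direction of unc-87 and dim-1, with 9 of 16 genes lower in hc1 and 2 higher, beside 12.2% and 18.6% over all tested probe sets. alp-1 lay 2.38-fold lower in hc1 (adjusted p = 1.78e-05) and mlc-1, a myosin light chain gene, 2.16-fold lower (adjusted p = 5.54e-06). unc-45, the myosin chaperone gene, was 1.20-fold higher in hc1 (adjusted p = 0.0117). mel-26 was also 1.20-fold higher (adjusted p = 0.0359), a call lost in 9 of 21 alternatives, 6 of which left out hc1 replicate 1, 2 or 5 or hc24 replicate 1, 2 or 3 (adjusted p = 0.0606 to 0.0962).

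The list of actin filament regulators held 48 genes, of which 36 were tested, 3 stayed under the filter, 3 had only probe sets shared with other genes and 6 matched none. In hc1 21 of the 36 were lower and 6 higher (median -0.49), beside 25.9% lower and 43.3% higher over all tested probe sets, so the share of rises was below that of all probe sets. fhod-1, a formin of body wall muscle, fell 3.97-fold (adjusted p = 2.93e-05) and fln-2, a filamin-related gene, fell 3.61-fold (adjusted p = 6.70e-08). aipl-1, above, rose most, and fli-1, a gelsolin-related gene, rose 1.25-fold (adjusted p = 0.0267). The fli-1 call was lost in 6 of 21 alternatives, among them cyclic loess (adjusted p = 0.454) and the fits without wild type replicate 4 or 5 or hc1 replicate 1 or 2 (adjusted p = 0.0584 to 0.0735). With cyclic loess the split was 1 higher and 25 lower, and with median centring 11 higher and 17 lower.

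In hc24 20 of the 36 actin regulators were lower and 3 higher (median -0.32), beside 21.7% and 37.7% over all tested probe sets. fhod-1 dropped to 3.60, under the minimum, from 6.27 in wild type, at least 4.82-fold (adjusted p = 2.96e-06), and the calponin gene cpn-2 fell 4.41-fold (adjusted p = 4.12e-08). cpn-4, another calponin gene, rose 1.62-fold (adjusted p = 0.000551). The split was 2 higher and 23 lower with cyclic loess and 10 higher and 12 lower with median centring. Between the alleles 7 genes of the list were higher and 8 lower in hc1 (median 0.04), beside 18.6% higher and 12.2% lower over all tested probe sets, so the share of rises was near the background. Without hc1 replicate 5 these were 3 higher and 6 lower. tth-1, a thymosin beta gene, was 1.84-fold higher in hc1 (adjusted p = 1.37e-05) and the beta heavy spectrin gene sma-1 1.56-fold higher (adjusted p = 0.000529). The gelsolin-like gene gsnl-1 was 2.18-fold lower (adjusted p = 7.40e-05) and the calponin gene cpn-3 1.87-fold lower (adjusted p = 1.77e-05).

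**Figure D4:**
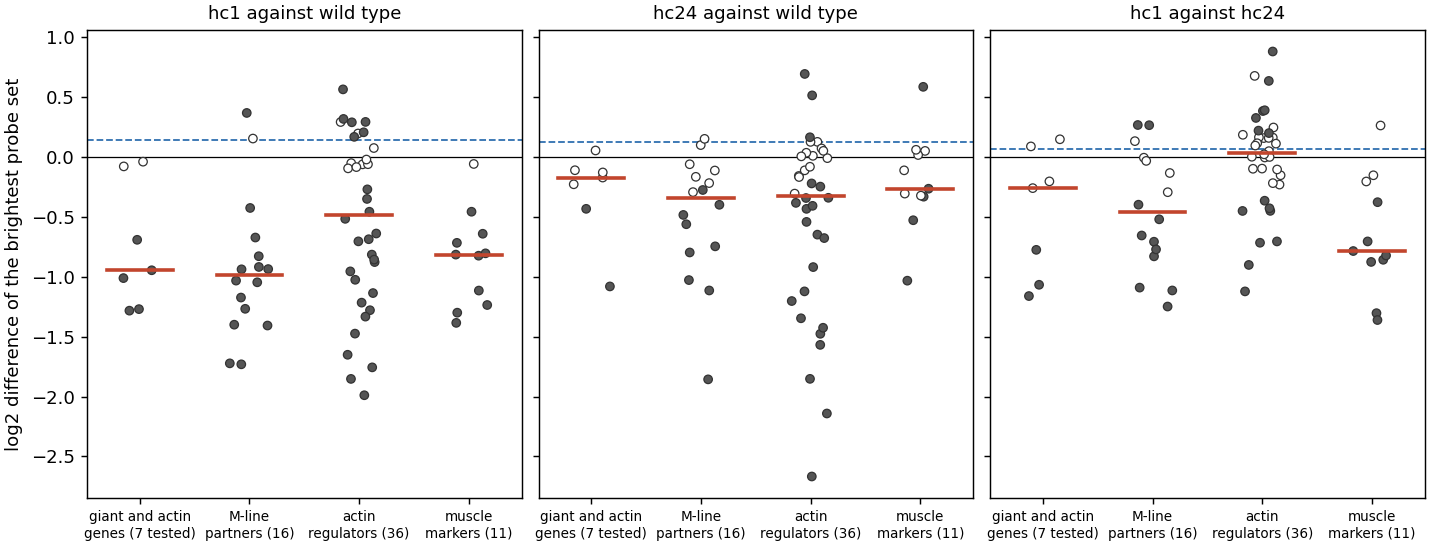
Log2 difference of the brightest tested probe set of each gene (vertical axis) for the 7 tested genes described here, the 16 M-line partners, the 36 actin regulators and the 11 body wall muscle markers (horizontal axis), in 3 comparisons. The list labelled M-line partners also holds genes of dense bodies and muscle attachment. Filled points are called, open points are not, red bars are medians, and the dashed line is the median of all tested probe sets. In hc1 the medians of the 4 lists lie between -0.98 and -0.49, and in hc1 against hc24 the median of the actin regulators is 0.04.

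The body wall muscle markers and myosin genes were set beside the genes described here. Of the 11 tested body wall muscle markers, 2 also belong to the actin list. In hc1 10 of the 11 were lower and 0 higher (median -0.81), beside 25.9% and 43.3% over all tested probe sets. In hc24 4 were lower and 1 higher (median -0.26), beside 21.7% and 37.7%. unc-54, the major myosin heavy chain gene, differed by -0.72 in hc1 and by 0.59 in hc24 (adjusted p = 5.06e-05 and 0.000337). myo-3, the minor heavy chain gene, differed by -1.38 and -0.53 (adjusted p = 1.99e-06 and 0.00463). At their brightest probe sets the hc1 differences of unc-89, unc-87 and dim-1 lie between those of unc-54 and myo-3. The other dim-1 probe set (-1.49) lay below myo-3, and the other tested unc-89 probe sets (-0.44 to -0.60) lay above unc-54. In hc24 those of all 3 genes lie between them as well, but there unc-54 and myo-3 moved in opposite directions, a wide span. ttn-1 in hc24 (-1.08) lay below myo-3, and unc-96 in hc1 (-0.69) lay just above unc-54.

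The mean profile of the 7 tested genes, each scaled to unit variance over the 12 arrays, was compared with all other tested genes as a description. The genes most like it were elt-3, a GATA factor gene of the epidermis and one of the hypodermis markers above (Pearson's r = 0.98), C29F5.1 (0.97), the galectin gene lec-5 (0.97), nrf-5 (0.96) and lev-10, which clusters acetylcholine receptors at body wall muscle synapses (0.96). These correlations run over 12 arrays in 3 groups and largely follow the differences between groups. Among the genes themselves the correlation with the mean profile was 0.72 to 0.88 for unc-89, ttn-1, unc-87, unc-96 and dim-1, and 0.34 for unc-60 and 0.32 for unc-78. The mean profile includes each of them.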

How the data were processed

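Expression values of 12 whole-worm arrays were analysed. The deposited values are log2 expression values, made by the authors with GCRMA in Affymetrix Expression Console, per the submitters' processing notes, which name no versions. Of 22625 probe sets 77 were controls; of the other 22548, 20810 were paired with 1 gene, 843 with several and 895 with none in the platform annotation, and 20701 of the 20810 matched the RefSeq gene table. A probe set was tested with a log2 value of at least 4 in at least 4 arrays. limma 3.58.1 in R 4.3.3 (lmFit and eBayes, 3 groups, no covariates) was run on all 11833, after tests on simulated data. The brightest tested probe set stood for a gene. Probe sets within a gene, and genes under the filter, were compared by exact two-sided permutation over 70 assignments, with a smallest possible p of 0.0286. Genes named from a list were up to 2 called members with the largest rise and the largest fall per comparison. hc1 and hc24 share the wild type arrays, so their differences from it are not independent. Alternatives were cyclic loess, median centring, other filters and floors, array weights, an intensity trend, the 2 groups alone, a replicate block, the mean probe set and leaving out each array. The genes, lists and tests were chosen with earlier results of these data known.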

Additional observations from a re-analysis of the deposited data

Results flagged for a closer look

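Of 54 groups of 4 arrays, formed by the 18 tested probe sets in 3 genotypes, 3 held an array far from the rest, and chance flags about 5% of such groups. All 3 were hc24 groups. For the unc-89 probe set 189196_at, hc24 replicate 5 read 6.55 while the other hc24 arrays read 6.21. For the unc-89 probe set 175353_s_at, hc24 replicate 3 read 5.51 against 5.62 to 5.64. For the brightest unc-60 probe set, 171748_x_at, hc24 replicate 5 read 13.20 against 13.55 to 13.57.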

How the results depend on the processing

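The calls of unc-89, ttn-1, unc-96, unc-87 and dim-1 in hc1 held in every alternative that tested them, and no called value of the 18 probe sets changed sign. Of 1143 values of these probe sets under alternatives, 50 lost a call, 33 gained one and 32 uncalled ones changed sign. Without a filter 12514 of 22548 probe sets were called in hc1, a smaller share than the 8194 of 11833 with it. The number of genes called in hc24 was 2, and became 6 with cyclic loess, 4 with the mean of a gene's probe sets, and 1 with median centring, no filter, a minimum of 6 or the 2 groups alone. Leaving out 1 array gave 1 to 4 (1 without wild type replicate 3 or 5 or hc24 replicate 1, 2 or 5, and 4 without wild type replicate 4), and 5 to 5 in hc1 and 3 to 3 between the alleles. For the actin regulators between the alleles it gave 9 to 14 calls, against 15. Signs turned in hc1 with median centring for unc-60 (0.21), unc-78 (0.18) and unc-60 192015_s_at (0.23), and with cyclic loess for unc-60 171826_x_at (-0.016) and 174141_at (-0.15). In hc24 they turned with median centring for unc-87 (0.082), unc-60 (0.12), unc-78 (0.025), dim-1 (0.14), unc-60 171826_x_at (0.18) and 192015_s_at (0.10) and unc-87 172004_x_at (0.12). They turned there for unc-89 with cyclic loess (-0.049), array weights (-0.028) and the mean probe set (-0.25), for unc-60 174141_at with cyclic loess (-0.15), and for 171826_x_at with array weights (0.022). Between the alleles unc-60 turned with the mean probe set (-0.020) and 174141_at with cyclic loess (-0.0054). Leaving out 1 array spanned 0 in hc1 for unc-60 (-0.083 to 0.0095), unc-78 (-0.13 to 0.011) and 192015_s_at (-0.097 to 0.042). In hc24 it did so for unc-89 (-0.033 to 0.15), 171826_x_at (-0.14 to 0.096) and 174141_at (-0.049 to 0.049). Between the alleles it did so for ttn-1 (-0.34 to 0.0037), unc-60 (-0.00042 to 0.14) and unc-89 175353_s_at (-0.12 to 0.021). The cause of these changes was not tested. No pairing by replicate number was seen: deviations of same-numbered arrays correlated at -0.07 to 0.08, and 1 of 6 arrays of hc1 and hc24 correlated best with its own number. With 7 same-numbered pairs this check cannot exclude pairing. With the replicate block 7353, 6508 and 2997 probe sets were called in the 3 comparisons, with 5, 2 and 3 of the 7 genes. The 2 in hc24 were not the same genes: unc-96 was lost (adjusted p = 0.105) and unc-78 gained (-0.40, adjusted p = 0.00976). The block also gained hc24 calls for unc-89 189196_at (-0.52, adjusted p = 0.0167) and 174686_at (adjusted p = 0.0105), lost those of unc-96 182025_at (adjusted p = 0.0989) and, in hc1, of fli-1 (adjusted p = 0.142) and unc-89 175353_s_at (adjusted p = 0.0818), lost mel-26 and gained unc-96 182025_at between the alleles (adjusted p = 0.0633 and 0.0444), and turned unc-60 171826_x_at in hc24 to 0.015. Signal near the floor limits unc-22, unc-98 and 5 ttn-1 probe sets.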
